A study of Mus musculus with 6 samples.

Results

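Transcripts of red blood cells were followed in selected microglia of mice with and without forced expression of PGC-1α. The genes were 9 adult globin and heme genes of the erythroid line, namely Hba-a1, Hba-a2, Hbb-b1, Hbb-b2, Hbb-bs, Hbb-bt, Alas2, Slc4a1 and Ahsp. They were listed by name, and their probes were found by matching the transcript accession of each non-control probe on the array to its RefSeq gene symbol. A probe was found for 7 of the 9 genes, among 23462 genes named on the array. These 7 genes had 8 probes on 35 spots of each array, out of 56605 probes on 59305 spots. No value is given for Ahsp and Hbb-bs.

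The cells came from mice labelled male and aged 10 weeks, on a C57BL/6 background. They were selected from brain by a magnetic kit against the surface receptor P2RY12. The controls, PGC-1αf/f mice (n = 3 arrays), were littermates without Cre, in which a PGC-1α allele flanked by loxP sites and accompanied by a gene for enhanced GFP stays silent. In mPGC-1α mice (n = 3 arrays), which carry the same allele, a tamoxifen-inducible Cre recombinase expressed from the Cx3cr1 locus switched the allele on. This Cre can also act in other cells that express Cx3cr1, such as monocytes and macrophages. Per the study's methods, tamoxifen was given on consecutive days and followed by an interval of weeks before experiments, meant to restrict the forced expression to microglia over macrophages. The labels number the samples of each group but do not tie each to an animal of its own, so p-values measure the spread between these samples.

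Hemoglobin carries oxygen and is built from alpha chains, encoded by Hba-a1 and Hba-a2, and beta chains, encoded by the Hbb genes, each holding a heme group. In erythroid cells Alas2 catalyses the first step of heme synthesis, Ahsp binds free alpha chains, and Slc4a1 (band 3) exchanges chloride for bicarbonate across the red cell membrane. Red cells lose their nucleus as they mature but keep remnants of globin mRNA. In brain, globin transcripts have also been described in some neurons and glial cells. Mice of the C57BL/6 background carry Hbb-bs and Hbb-bt, whereas Hbb-b1 and Hbb-b2 are the pair of other strains. Which transcript the Hbb-b1 and Hbb-b2 probes bound in these mice was not tested.

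The 250 bases before the start of the transcript are shown for 4 of the genes, from RefSeq on GRCm38.p6, to show where short sequences that erythroid factors are known to bind lie in them. Hbb-bs is among them as an adult beta gene of this strain, although it has no value here. Capitals mark 4 motifs, read on either strand. The GATA motif, GATAA, is bound by GATA factors. The CACCC box is bound by Krüppel-like factors such as Klf1. The remaining motifs were the CCAAT box and a TATA box, here searched as ATATAA. Hba-a1 is at chr11:32283422-32283671 on the plus strand, Hbb-bt at chr7:103813924-103814173 and Hbb-bs at chr7:103827929-103828178 on the minus strand, and Alas2 at chrX:150547167-150547416 on the plus strand.
Hba-a1: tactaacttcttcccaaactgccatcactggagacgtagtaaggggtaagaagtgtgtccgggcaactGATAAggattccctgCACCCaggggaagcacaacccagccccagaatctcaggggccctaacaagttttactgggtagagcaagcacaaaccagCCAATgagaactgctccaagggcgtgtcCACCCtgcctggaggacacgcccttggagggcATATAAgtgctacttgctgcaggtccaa
Hbb-bt: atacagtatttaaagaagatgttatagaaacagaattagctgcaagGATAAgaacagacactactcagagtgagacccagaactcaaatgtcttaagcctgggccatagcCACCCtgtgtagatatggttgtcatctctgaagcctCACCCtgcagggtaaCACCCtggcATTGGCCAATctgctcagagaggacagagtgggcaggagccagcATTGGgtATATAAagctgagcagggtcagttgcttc
Hbb-bs: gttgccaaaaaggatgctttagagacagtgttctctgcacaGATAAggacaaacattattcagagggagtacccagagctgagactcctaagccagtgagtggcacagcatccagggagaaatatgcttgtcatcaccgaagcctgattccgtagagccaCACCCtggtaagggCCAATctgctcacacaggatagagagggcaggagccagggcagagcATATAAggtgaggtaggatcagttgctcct
Alas2: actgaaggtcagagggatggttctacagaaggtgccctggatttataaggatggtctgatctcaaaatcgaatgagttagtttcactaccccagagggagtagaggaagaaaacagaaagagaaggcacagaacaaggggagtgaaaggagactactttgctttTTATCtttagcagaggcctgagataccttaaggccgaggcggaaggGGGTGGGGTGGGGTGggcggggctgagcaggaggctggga

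Each of the 3 globin windows held the TATA box, starting 28 bases before the transcript in Hba-a1, 29 in Hbb-bt and 30 in Hbb-bs. The CCAAT box on the coding strand lay 88, 75 and 76 bases before it, respectively. The CACCC box occurred at 167 and 60 bases in Hba-a1, at 140, 104 and 89 bases in Hbb-bt, and at 90 bases in Hbb-bs. In Alas2, the GATA motif and 3 adjoining copies of the CACCC box lay on the other strand, and the letters of the CCAAT and TATA boxes searched were not in the window. Over all 32851 promoter windows of this length in the table, the GATA motif was held by 22.6%, the CACCC box by 52.0%, the CCAAT box by 33.9% and the TATA box by 9.10%, on at least 1 strand. The motifs did not overlap each other in the windows printed, apart from adjoining copies. The window of Hba-a2 matched that of Hba-a1 at 247 of 247 bases after a shift of 3 bases, and it is not printed. Hba-a1 lies at chr11:32283672-32284486 and Hba-a2 at chr11:32296492-32297310, and their transcripts are nearly identical, so signals of the Hba-a1 and Hba-a2 probes cannot be assigned to one gene.

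Before the values, 2 arrays need mention. PGC-1αf/f replicate 3 stood apart from the rest. Over all probes its correlation with them averaged 0.928, against 0.962 to 0.972 for the other 5. On mPGC-1α replicate 3, 0 of 7 Y-linked probes were well above background although the sample is labelled male, against 5 to 6 on the other arrays. The members' differences are therefore given with and without these arrays, and those of other genes also without PGC-1αf/f replicate 3 where that moved them by over 1.5 times. All 6 arrays lay on 1 slide, with the groups in different slide rows, so slide row and group cannot be told apart. The 75th percentile of signal ran from 1012 to 2138 intensity units, and 27025 to 30272 of 59305 spots per array were well above background. The 12 listed microglia markers all had a probe well above background on at least 1 array, and the tested probe of C1qa, a complement gene of microglia, lay at 4.82 ± 0.24 in PGC-1αf/f and 4.82 ± 0.13 in mPGC-1α (SD, n = 3 each). Of the 6 microglia markers tested, 5 were lower and 1, C1qa, higher in mPGC-1α, and 6 of 6 were lower without PGC-1αf/f replicate 3, with 0 past the threshold in either fit. Cx3cr1, whose locus carries the Cre, was at 4.35 ± 0.15 in PGC-1αf/f and 3.84 ± 0.11 in mPGC-1α (SD, n = 3 each), with groups that did not overlap and a difference of -0.51 (SE 0.14, limma adjusted p = 0.194). The brighter Ppargc1a probe was 0.80 higher in mPGC-1α on the log2 scale (SE 0.35, limma adjusted p = 0.306). Without PGC-1αf/f replicate 3 it was 0.44 higher. The other Ppargc1a probe was 0.59 higher (SE 0.38, limma adjusted p = 0.445), and 0.26 higher without that array. The groups overlapped for both probes.

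Values below are log2 intensities minus the array's own 75th percentile, so a probe at 0 is as bright as that percentile. Differences are mPGC-1α minus PGC-1αf/f, and arrays are given in the order of replicates 1, 2 and 3. Because probes differ in brightness for reasons of design, levels are compared between arrays and never between probes.

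Globin transcripts were readily measured in the selected cells of both genotypes, and no globin or heme gene differed between them past the threshold. Of the 8 probes, 7 were well above background on all 6 arrays and 1, Slc4a1, on 5. With limma and Benjamini-Hochberg adjustment over 25257 probes, 0 of 8 passed an adjusted p of 0.05, where 20 of all probes (0.0792%) did. Unadjusted p was under 0.05 for 0 of the 8, against 16.7% of all probes. The adjusted p of the members ran from 0.513 to 0.999. The groups overlapped for every one of the 5 member probes with a value on all 6 arrays, whereas they did not overlap for 25.2% of all probes. The plot of the values by array shows the spread within each group.

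**Figure D1:**
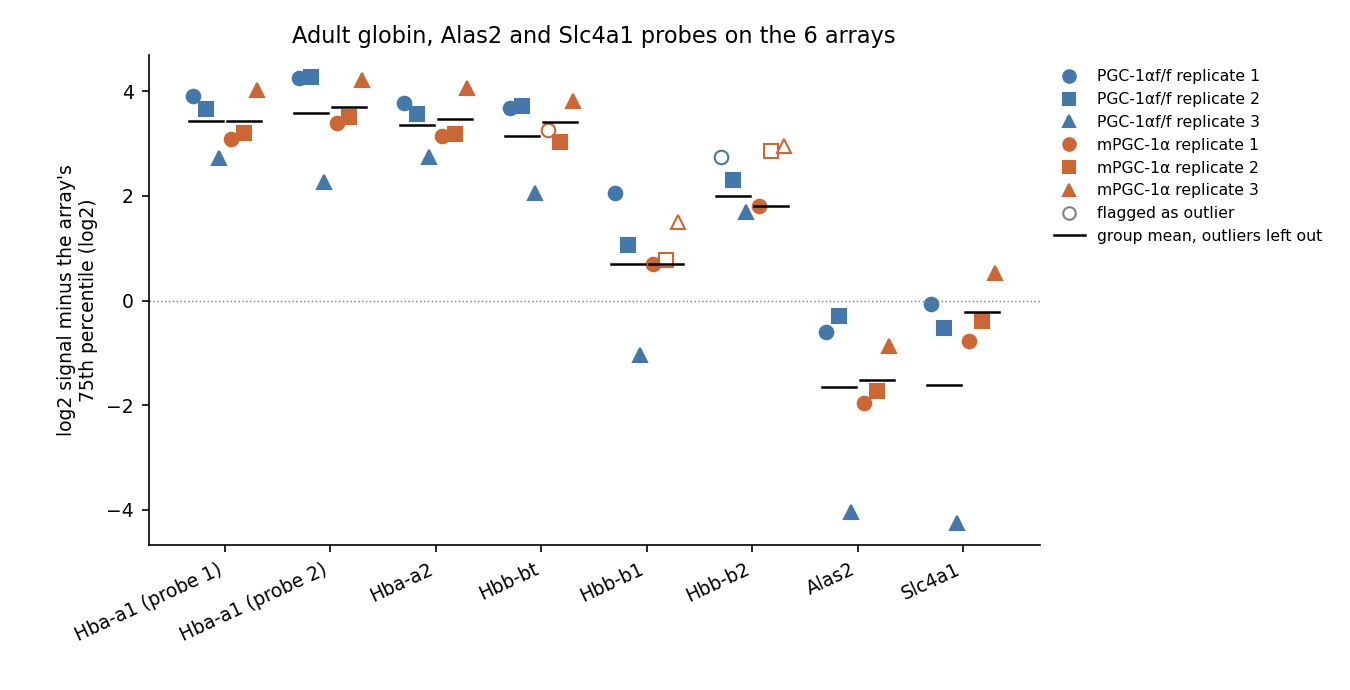
Signal of the 8 member probes on each array, as log2 intensity minus the array's 75th percentile, with blue for PGC-1αf/f, orange for mPGC-1α, open symbols for spots that the scanner software marked as outliers and black lines for group means without them. PGC-1αf/f replicate 3 (blue triangle) is the lowest array for all 8 probes, at 2.26 to 2.74 for the alpha globin probes and at -4.03 for Alas2.

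The alpha globin probes are the best measured, since each was printed at 10 spots per array. The first Hba-a1 probe read 3.91, 3.66 and 2.72 in PGC-1αf/f and 3.09, 3.20 and 4.02 in mPGC-1α. The arrays of the 2 groups interleaved, with mPGC-1α replicate 3 highest and PGC-1αf/f replicate 3 lowest. The difference was 0.01 (SE 0.37, 95% confidence interval -0.87 to 0.89, limma adjusted p = 0.994).

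The second Hba-a1 probe read 4.26, 4.26 and 2.26 in PGC-1αf/f and 3.39, 3.50 and 4.21 in mPGC-1α. Here PGC-1αf/f replicates 1 and 2 lay just above mPGC-1α replicate 3, while PGC-1αf/f replicate 3 lay 1.13 below the next array. The difference was 0.11 (SE 0.55, 95% confidence interval -1.21 to 1.42, limma adjusted p = 0.936).

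The Hba-a2 probe read 3.77, 3.56 and 2.74 in PGC-1αf/f and 3.14, 3.19 and 4.07 in mPGC-1α, the same order of arrays as the first Hba-a1 probe. Its difference was 0.11 (SE 0.35, 95% confidence interval -0.72 to 0.93, limma adjusted p = 0.897).

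The arrays differed by more than the spots of an array did. The SD between the spots of one alpha globin probe on one array was 0.04 to 0.23 on the log2 scale, and the SD between arrays was 0.48 to 0.79. Without PGC-1αf/f replicate 3 the SD between arrays was still 0.39 to 0.44. Among the other 5 arrays, mPGC-1α replicates 1 and 2 formed a low pair and PGC-1αf/f replicates 1 and 2 with mPGC-1α replicate 3 a high trio for all 3 alpha globin probes, as the plot of single spots shows. Within the low pair the arrays differed by 0.10, 0.11 and 0.05 for the 3 probes, and the lowest of the high trio lay 0.46, 0.71 and 0.37 above the pair.

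**Figure D2:**
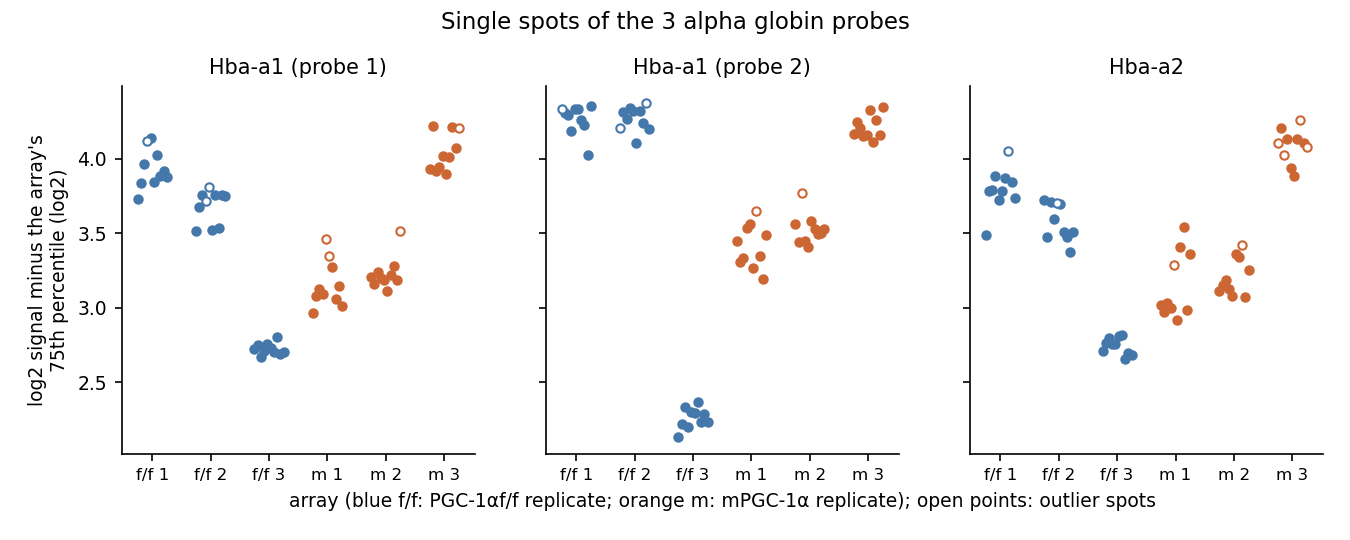
Every spot of the 3 alpha globin probes (10 per probe and array), as log2 intensity minus the array's 75th percentile, for the 3 PGC-1αf/f arrays in blue and the 3 mPGC-1α arrays in orange, with open points for spots marked as outliers. The spots of 1 array cluster tightly, with an SD of at most 0.23, while the arrays lie at separate levels.

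The 2 Hba-a1 probes did not keep a constant distance. The second minus the first probe was 0.34 and 0.60 on PGC-1αf/f replicates 1 and 2, was 0.29, 0.30 and 0.19 in mPGC-1α, and turned to -0.46 on PGC-1αf/f replicate 3. By contrast, the Hba-a2 probe stayed within -0.15 to 0.04 of the first Hba-a1 probe on all 6 arrays. On PGC-1αf/f replicate 3 the 2 probes named for Hba-a1 therefore gave unequal drops from the median of the other arrays, -0.93 and -1.95, with 10 spots behind each.

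The beta globin probes had 1 spot each, and several spots were marked as outliers by the scanner software. Hbb-bt, one of the 2 adult beta genes of this strain (chr7:103812524-103813923), read 3.67, 3.71 and 2.06 in PGC-1αf/f and 3.02 and 3.81 in mPGC-1α replicates 2 and 3, the spot of replicate 1 being an outlier. PGC-1αf/f replicate 3 was again lowest and mPGC-1α replicate 3 highest. The difference was 0.27 (SE 0.56, 95% confidence interval -1.11 to 1.64, limma adjusted p = 0.830). With the outlier spot kept, mPGC-1α replicate 1 read 3.26 and the difference was 0.21.

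The Hbb-b1 probe read 2.06, 1.07 and -1.05 in PGC-1αf/f and 0.70 on the only mPGC-1α array left, replicate 1. The PGC-1αf/f arrays alone spanned more than 3 log2 units, with the mPGC-1α value between them. The fitted difference of 0.01 (SE 1.18, 95% confidence interval -3.04 to 3.05, limma adjusted p = 0.999) assumes that this single array varies like the others. With outliers kept, the mPGC-1α arrays read 0.70, 0.77 and 1.50.

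The Hbb-b2 probe kept 3 arrays, reading 2.31 and 1.69 in PGC-1αf/f replicates 2 and 3 and 1.81 in mPGC-1α replicate 1. It was the only member that was lower in mPGC-1α with all arrays (difference -0.19, SE 0.35, limma adjusted p = 0.810), in a fit that assumes that the single mPGC-1α array varies like the others. That direction turned when outlier spots were kept, with 2.74, 2.31 and 1.69 in PGC-1αf/f, 1.81, 2.86 and 2.96 in mPGC-1α and a difference of 0.29 (SE 0.38).

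Alas2, the erythroid enzyme that starts heme synthesis (chrX:150547417-150570622), varied more than the globins. It read -0.61, -0.29 and -4.03 in PGC-1αf/f and -1.96, -1.73 and -0.88 in mPGC-1α. All 3 mPGC-1α arrays lay below PGC-1αf/f replicates 1 and 2 and above replicate 3. The means were -1.65 ± 2.07 and -1.52 ± 0.57 (SD, n = 3 each), and the difference was 0.12 (SE 0.95, 95% confidence interval -2.12 to 2.37, limma adjusted p = 0.957).

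Slc4a1, the anion exchanger of the red cell membrane (chr11:102348820-102365281), read -0.07, -0.53 and -4.25 in PGC-1αf/f and -0.77, -0.39 and 0.53 in mPGC-1α. The spot of PGC-1αf/f replicate 3 was not well above background, so only 2 of 3 PGC-1αf/f arrays measured Slc4a1. The probe was tested because it was well above background on all 3 mPGC-1α arrays. The other 5 arrays overlapped, with mPGC-1α replicate 3 highest. With that spot included, the means were -1.61 ± 2.29 and -0.21 ± 0.67 (SD, n = 3 each). The difference was 1.40 (SE 1.05, 95% confidence interval -1.09 to 3.89, limma adjusted p = 0.513), the largest among the members. Its size, test and rank rest in part on that spot. The PGC-1αf/f mean without it was -0.30.

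The members shared 1 feature across genes and chromosomes, a low signal on PGC-1αf/f replicate 3. It was the lowest array for 8 of 8 probes, and for 5 of 5 of those with 6 values, against 29.8% of all tested probes. It lay at least 1 log2 unit below every other array for 3 of these 5 (the second Hba-a1 probe, Alas2 and Slc4a1), against 4.12% of all probes. Measured from the median of the other arrays, the drop was -0.37 for Hbb-b2, against only 2 other arrays, and ran from -0.82 to -2.11 for the other globin probes. It was -3.16 for Alas2. With outlier spots kept, the drop of Hbb-b2 was -1.04. Slc4a1 measured -3.85, but its spot there was not well above background. Set at the lowest signal well above background on that array, its drop would be -3.77. A drop at least as large as that of Alas2 was seen for 0.983% of the tested probes with 6 values. The share was 2.68% for the second Hba-a1 probe, 3.99% for Hbb-bt and 2.13% for Hbb-b1. Drops like those of the first Hba-a1 probe (10.0%), Hba-a2 (11.6%) and Hbb-b2 (22.9%) were more common on that array. The median over all genes tested was -0.03.

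**Figure D3:**
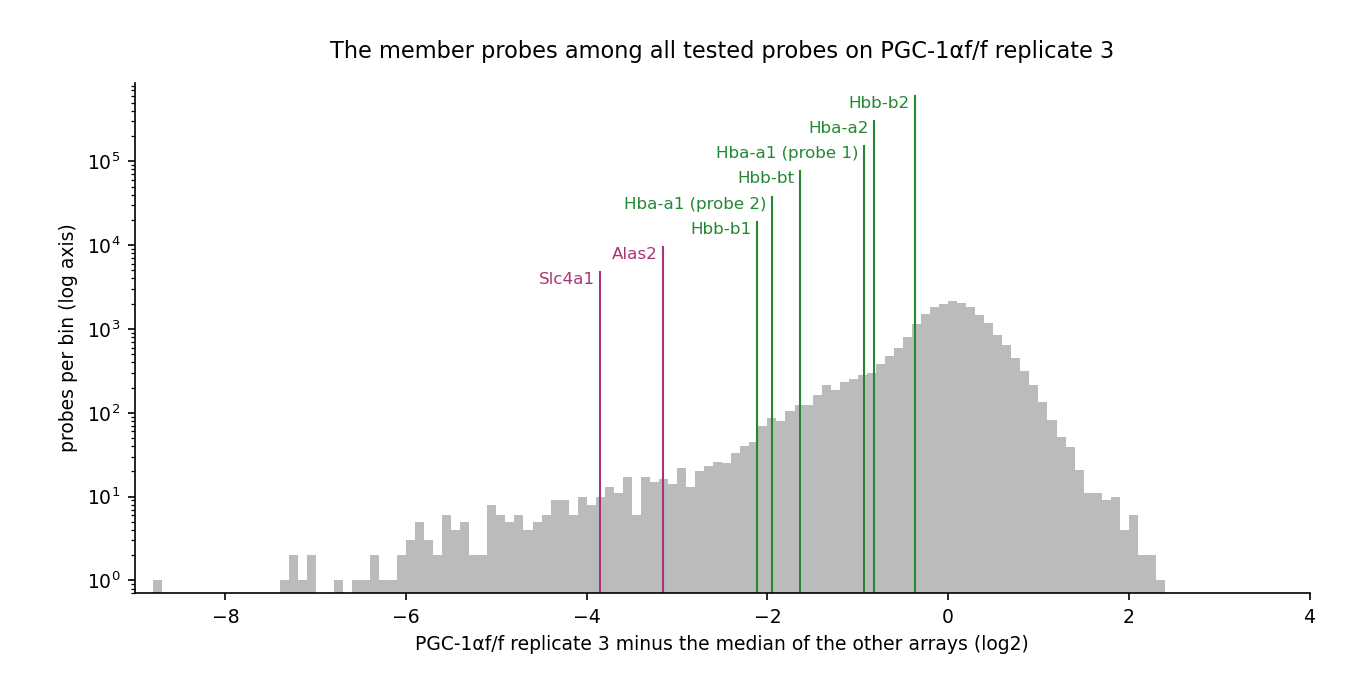
Distribution over the 22997 tested probes with a value on every array of the signal on PGC-1αf/f replicate 3 minus the median of the other arrays (log2, bars on a log axis), with lines for the 6 globin probes (green) and for Alas2 and Slc4a1 (purple). All 8 lines lie left of 0, from -0.37 for Hbb-b2 to -3.85 for Slc4a1, whose spot on that array was not well above background.

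How many members were lowest on that array depended on the scaling, since PGC-1αf/f replicate 3 was also the brightest array, with a 75th percentile of 2138. The count was 8 of 8 after quantile normalization (23.8% of all probes) and after normexp correction (23.5%), and 7 of 8, all but Hbb-b2, when arrays were shifted by their medians (15.4%). Without any normalization between arrays it was 5 of 8, against 6.88% of all probes. The first Hba-a1 probe, Hba-a2 and Hbb-b2 were then no longer lowest, while the second Hba-a1 probe, Hbb-bt, Hbb-b1, Alas2 and Slc4a1 were. The drop also differed between members within the array, where scaling cancels. Alas2 minus the first Hba-a1 probe was -6.76 on PGC-1αf/f replicate 3 and -5.05 to -3.95 on the others.

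Leaving out PGC-1αf/f replicate 3 turned the direction of most members. In that fit 7 of 8 probes were lower in mPGC-1α and 1, Slc4a1, was higher. Of these, Hbb-b2 then rested on 1 array per group and Hbb-b1 on 1 mPGC-1α array, each assumed to vary like the others. The median difference over the 8 probes moved from 0.11 to -0.42, where the median over all probes was 0.00 in both fits. Again 0 of 8 passed the adjusted threshold, against 25 of 25002 probes (0.1%). The second Hba-a1 probe was at -0.56 (SE 0.26, 95% confidence interval -1.17 to 0.05, limma adjusted p = 0.435).

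Alas2 was the member with the clearest separation once this array was left out. Its difference was -1.07 (SE 0.32, 95% confidence interval -1.82 to -0.32), with an unadjusted limma p of 0.0118 and an adjusted p of 0.246. It was the only 1 of the 8 under an unadjusted p of 0.05, where 6.52% of all probes were so in the lower direction. All 3 mPGC-1α arrays lay below both remaining PGC-1αf/f arrays for Alas2 and for the second Hba-a1 probe. These were 2 of 5 member probes with all values, against 16.3% of all probes. For the other 3 of these probes mPGC-1α replicate 3 lay above both.

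For Slc4a1 the difference was 0.09 in place of 1.40 (SE 0.37, 95% confidence interval -0.78 to 0.95, limma adjusted p = 0.953). Alas2 and Slc4a1 did not keep a constant distance. Alas2 minus Slc4a1 was -0.54, 0.23 and 0.21 in PGC-1αf/f and -1.19, -1.33 and -1.40 in mPGC-1α, with Slc4a1 not well above background behind the third of these values. This pair was chosen after its values were seen, and its difference is given with no test.

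Leaving out mPGC-1α replicate 3 alone placed 6 of 8 members lower and 2 higher in mPGC-1α, with a median of -0.17 and adjusted p of at least 0.722. In that fit the mPGC-1α value of Hbb-bt, Hbb-b1 and Hbb-b2 came from 1 array. With both replicates 3 left out, a choice made after seeing the data, all 8 members were lower in mPGC-1α and the median was -0.66. PGC-1αf/f replicate 3 was the lowest array for all 8, and mPGC-1α replicate 3 the highest mPGC-1α array wherever it had a value. Leaving both out could only lower the differences. Neither this count nor the p-values below can therefore show a difference apart from that choice. The differences were -0.64 and -0.82 for the Hba-a1 probes, -0.50 for Hba-a2, -0.67 for Hbb-bt, -0.86 for Hbb-b1, -0.50 for Hbb-b2, -1.39 for Alas2 and -0.28 for Slc4a1. Here Hbb-b2 rested on 1 array per group, and Hbb-bt and Hbb-b1 on 1 mPGC-1α array. Among members with 2 arrays per group, unadjusted limma p was under 0.05 for the 3 alpha globin probes and Alas2, but not for Slc4a1. Of all probes, 7.07% were so in the lower direction. The 3 alpha globin probes read nearly identical transcripts in the same RNA, so they do not count as 3 separate results. The adjusted p ran from 0.163 to 0.644, so 0 of 8 passed the threshold in that fit of at most 2 against 2 arrays, which 3 of 25260 probes (0.0119%) did pass.

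**Figure D4:**
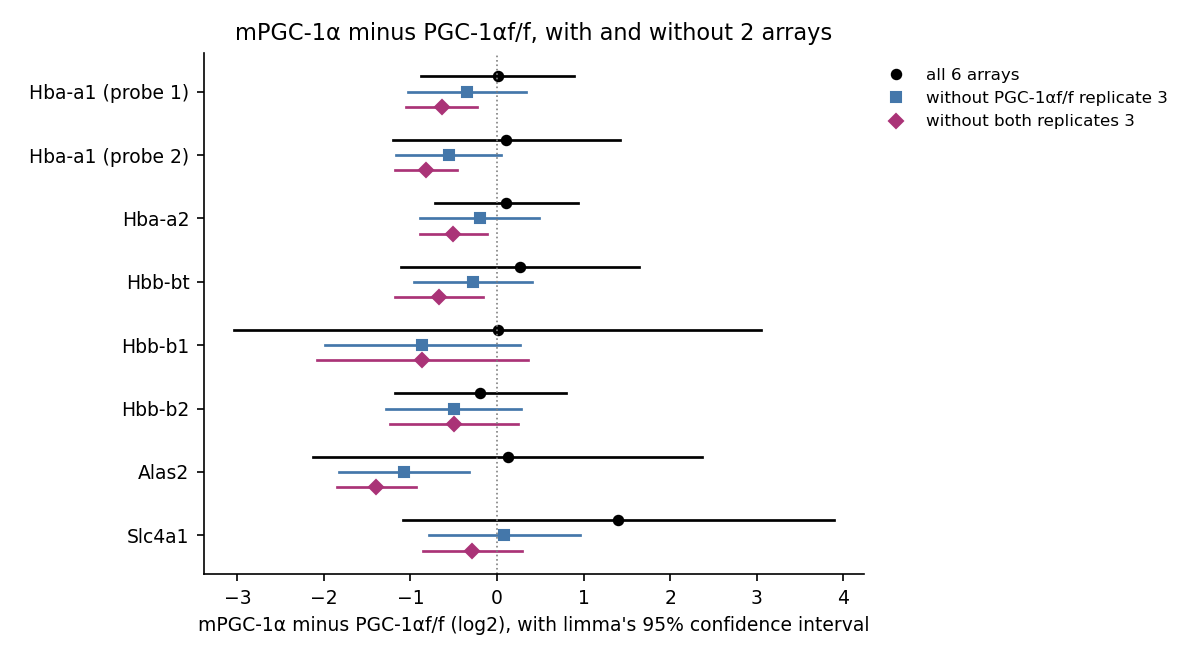
Difference mPGC-1α minus PGC-1αf/f on the log2 scale with limma's 95% confidence interval for each member probe, from all 6 arrays (black), without PGC-1αf/f replicate 3 (blue) and without both replicates 3 (purple). With all arrays every interval spans 0, and for Alas2 the estimate moves from 0.12 to -1.07 and -1.39.

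In bulk RNA, fewer cells of a type and less RNA per cell cannot be told apart. Marker genes of several other cell types were low on the same array as the members. The neutrophil genes had their lowest value on PGC-1αf/f replicate 3 for 10 of 11 tested genes, the lymphocyte genes for 5 of 5, the endothelial genes for 5 of 5 and the neuronal genes for 4 of 5, against 33.4% of all genes tested. The summed neutrophil signal was 30.7 times the 75th percentile on that array, 129 to 149 on the other PGC-1αf/f arrays and 151 to 178 in mPGC-1α. The summed lymphocyte signal was 3.36 against 5.72 to 8.37 and 7.85 to 13.6, and the summed endothelial signal 3.15 against 12.6 to 13.4 and 13.2 to 16.8. The summed platelet signal was not low there (6.30, with 4.89 as the lowest of the PGC-1αf/f arrays), and 0 of 3 tested platelet genes were lowest on that array. The summed microglial signal was 102 there, against 108 to 130 on the other PGC-1αf/f arrays and 96.2 to 110 in mPGC-1α. The summed neuronal signal was not low there either, at 14.1 against 12.01 to 15.7 on the other PGC-1αf/f arrays and 14.2 to 15.9 in mPGC-1α. That sum is weighted to its brightest probe, Snap25, which read 3.52 on that array and was not lowest there. The median over the 5 tested neuronal genes, each minus its own median over the 6 arrays, was -0.97 on that array. No array was at 0 for any of these sums. A probe well above background on some array was lacking for 0 of 11 neutrophil, 2 of 8 lymphocyte, 2 of 9 endothelial, 1 of 7 neuronal and 5 of 9 platelet markers. Their part in the members' values was not tested.

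**Figure D5:**
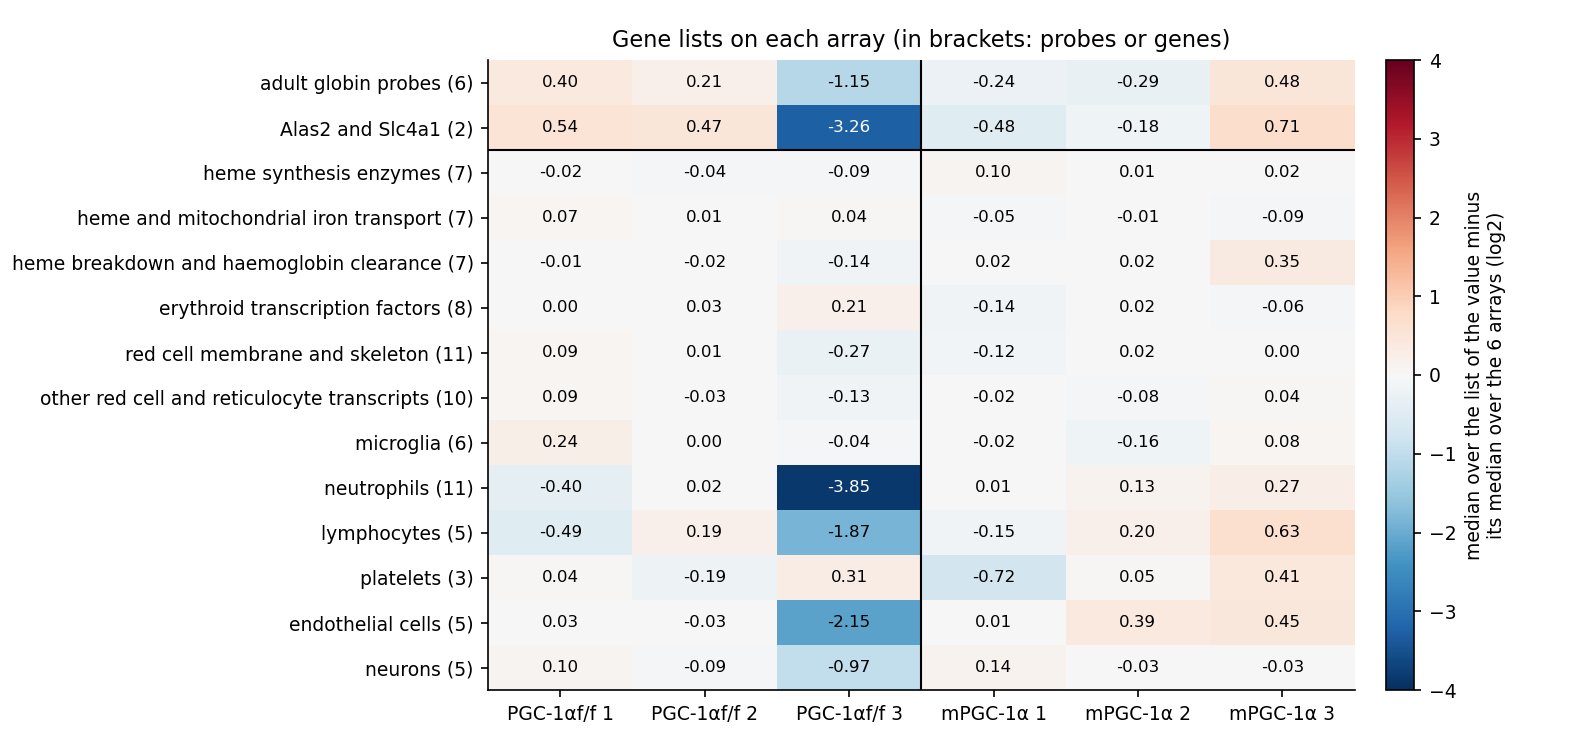
Median over each list of the value minus the gene's own median over the 6 arrays (log2), for the member probes and for lists of heme, red cell and cell type genes, with the 3 PGC-1αf/f arrays left and the 3 mPGC-1α arrays right of the line. PGC-1αf/f replicate 3 is at -1.15 for the globin probes, -3.26 for Alas2 and Slc4a1 (Slc4a1 not well above background there) and -3.85 for neutrophil genes, while the heme synthesis list stays within -0.09 to 0.10.

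Enzymes of heme synthesis that all cells use spanned a narrower range over the arrays than Alas2 did. Of 8 such enzymes 7 were tested, of which 4 were higher and 3 lower in mPGC-1α and 0 passed the threshold (median difference 0.21, 0.14 without PGC-1αf/f replicate 3, and 0.03 over all genes). Alas1, the form of the first enzyme in cells outside the erythroid line, read 1.84, 1.70 and 1.45 in PGC-1αf/f and 2.03, 1.97 and 1.88 in mPGC-1α, a difference of 0.29 (SE 0.15, limma adjusted p = 0.355), and of 0.19 without PGC-1αf/f replicate 3. PGC-1αf/f replicate 3 was the lowest array for Alas1 too, but by -0.43 from the median of the others, against -3.16 for Alas2. Uros, which closes the porphyrin ring, had the lowest difference of the list at -0.19 (limma adjusted p = 0.646).

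Of 8 carriers of heme or mitochondrial iron, 7 were tested, with 3 higher, 4 lower and 0 past the threshold (median -0.03, and 0.01 without PGC-1αf/f replicate 3). Slc25a37 (mitoferrin 1), which brings iron into mitochondria and is prominent in erythroid cells, read 2.93, 2.94 and 3.04 in PGC-1αf/f and 2.25, 2.65 and 2.54 in mPGC-1α. Its groups did not overlap and PGC-1αf/f replicate 3 was not low. The difference was -0.49 (SE 0.15, limma adjusted p = 0.214), the smallest adjusted p among all 51 tested genes of the heme and red cell lists. Flvcr2, a heme or choline transporter, had the highest difference of this list at 0.67 (limma adjusted p = 0.435), which was 0.21 without PGC-1αf/f replicate 3.

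The genes that clear hemoglobin and break heme down had 8 members, 7 of them tested, with 6 higher, 1 lower and 0 past the threshold (median 0.31, and 0.25 without PGC-1αf/f replicate 3). Hmox1, the inducible enzyme that opens the heme ring, read 1.23, 0.77 and 1.05 in PGC-1αf/f and 1.18, 1.31 and 1.90 in mPGC-1α, a difference of 0.45 (SE 0.23, limma adjusted p = 0.358). Hp (haptoglobin), which binds free hemoglobin and is also made by neutrophils, read 2.69, 3.19 and -0.99 in PGC-1αf/f and 3.23, 3.61 and 3.70 in mPGC-1α. Its difference of 1.88 (limma adjusted p = 0.378) was 0.57 without PGC-1αf/f replicate 3. Hmox2, the constitutive form of heme oxygenase, had a difference of -0.00 (limma adjusted p = 0.992), and of -0.04 without PGC-1αf/f replicate 3.

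Of 11 erythroid transcription factors, 3 (Gata1, Gfi1b and Sox6) had no probe well above background on any array. Klf1, the CACCC-binding erythroid factor, was well above background on 5 of 6 arrays and read -2.21, -3.09 and -5.06 in PGC-1αf/f and -2.87, -2.46 and -2.96 in mPGC-1α. The other factors tested are also used outside red cells, and of the 8 tested 3 were higher, 5 lower and 0 past the threshold (median -0.24, and -0.13 without PGC-1αf/f replicate 3). Nfe2, a factor of erythroid cells and megakaryocytes that neutrophils also express, read 0.45, 1.18 and -3.43 in PGC-1αf/f and 1.00, 1.75 and 1.60 in mPGC-1α. Its difference of 2.05 (limma adjusted p = 0.378) was 0.64 without PGC-1αf/f replicate 3. Bcl11a, a repressor of embryonic globin genes that neurons and lymphocytes also express, was at -0.49 (limma adjusted p = 0.269). Klf1 was named for its known role, after its values were seen.

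Of 19 genes of the red cell membrane and its skeleton, 7 had no probe well above background on any array, and of 11 tested 6 were higher, 5 lower and 0 past the threshold (median 0.02, and 0.04 without PGC-1αf/f replicate 3). Rhd, a blood group protein of the red cell surface, read -2.50, -2.88 and -5.78 in PGC-1αf/f and -2.79, -2.48 and -2.42 in mPGC-1α, well above background on 5 of 6 arrays. It was lowest on PGC-1αf/f replicate 3. Gypc (glycophorin C) had a difference of 1.19 and Xk, which carries the Kx antigen, one of -0.46 (limma adjusted p = 0.339 and 0.260). Gypc was well above background on 5 of 6 arrays. Its reading on PGC-1αf/f replicate 3, -4.40, lay below the lowest signal well above background on that array (-4.17). Its difference with all arrays rests in part on that reading, and without PGC-1αf/f replicate 3 it was 0.48. PGC-1αf/f replicate 3 was the lowest array for 7 of the 11. Of 15 other transcripts common in reticulocytes, 10 were tested, with 7 higher, 3 lower and 0 past the threshold (median 0.08, and -0.07 without PGC-1αf/f replicate 3). Of these, Prdx2, an abundant peroxidase of red cells, had a difference of 0.21 and Mkrn1, a ubiquitin ligase, one of -0.31 (limma adjusted p = 0.543 and 0.294). The difference of Prdx2 was 0.09 without PGC-1αf/f replicate 3.

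Of 7 embryonic and minor globin genes 6 had a probe, and 0 of these 6 were well above background on any array. The same held for Mb (myoglobin) and Ngb (neuroglobin). Cygb (cytoglobin), a globin of fibroblast-like and other cells, was well above background on all 6 arrays and read -0.58, -1.36 and -2.38 in PGC-1αf/f and -1.20, -0.80 and -0.57 in mPGC-1α, a difference of 0.59 (SE 0.43, limma adjusted p = 0.507), and of 0.12 without PGC-1αf/f replicate 3.

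Over all these pathway lists, 79 genes were listed, 78 had a probe, 51 were tested and 0 passed the threshold, which 8 of all 12302 genes tested (0.065%) did pass. Unadjusted p was under 0.05 for 5 of the 51, against 13.9% of all genes tested. Of these 5, 4 were lower in mPGC-1α (Slc25a37, Bcl11a, Xk and Mkrn1) and 1 was higher (Blvrb, biliverdin reductase B, difference 0.36, limma adjusted p = 0.297). Blvrb was named after its values were seen.

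The genes whose pattern over the 6 arrays was most like that of the alpha globins were found by Pearson's r with the mean of the 3 alpha globin probes, which was 3.98, 3.83 and 2.58 in PGC-1αf/f and 3.21, 3.29 and 4.10 in mPGC-1α. Over 12298 genes, the 10 highest were Pald1, Ccl9, H2az2, Clec4b1, Zdhhc22, Cyb561d2, Ptma, Actb, Sec22b and Ddx18, with r from 0.976 to 0.998 over 6 arrays and from 0.942 to 0.997 over the 5 arrays without PGC-1αf/f replicate 3. The r of Alas2 was 0.94 and that of Slc4a1 0.88, where 5% of genes exceeded 0.776. These are descriptions over 6 points that share depth and scaling. Likeness in pattern was not likeness in size, since Pald1 ranged only from 3.25 to 3.53 and Actb, which encodes beta actin, from 4.51 to 4.95.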

How the data were processed

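Total RNA of selected microglia was amplified, labelled with the dye Cy5 and hybridized by the authors to 1-colour Agilent mouse arrays (3 per group). The deposited scanner files hold 1 intensity per spot, which the Feature Extraction software (version 11.5.1.1) had already corrected for background, with marks for outlier, saturated and well above background spots. A deposited series table repeats these intensity values unscaled between arrays and served as an alternative. Here, control spots and outlier spots were left out, log2 intensities were reduced by the 75th percentile of each array, and the spots of a probe were averaged. Of 210 member spots over the 6 arrays, 26 were outliers, 0 saturated and 1 not well above background. Probes well above background (at least 0.5 of their spots) on every array of a group were tested, 25333 of 56605, of which 25257 gave a p. Fits used limma 3.58.1 in R 4.3.3, two-sided, with Benjamini-Hochberg adjustment and a threshold of 0.05. The number of arrays limits the precision. Probes were named through RefSeq accessions (33767 probes). A gene in a list was represented by its brightest tested probe with values on all 6 arrays. Named genes were all members, any gene of a list past the threshold, otherwise up to 2 with the highest and 2 with the lowest difference, the 10 genes most like the alpha globins, and Ppargc1a, apart from genes not reported here by name. The members and lists were chosen with earlier results of these data known. The fit was tested on simulated data. Promoter windows were read, and figures drawn, with Python 3.11.15 and matplotlib 3.10.9. Alternatives changed the scaling, background correction, filter, outliers, prior variance, array weights, slide column, replicate block and the arrays included.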

Additional observations from a re-analysis of the deposited data

How the results depend on the processing

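In 0 of the settings tried did a member pass an adjusted p of 0.05. The median difference of the members ran from -0.42 to 0.48 when 1 array was left out in turn. It stayed within the spread between replicates (SD 0.81). That spread includes PGC-1αf/f replicate 3, at -1.15 for the globin probes and -3.26 for Alas2 and Slc4a1, so it is a wide yardstick. The sign of single members was not stable. It turned negative after quantile normalization for the first Hba-a1 probe (-0.10) and Hba-a2 (-0.0016), after median scaling for the Hba-a1 probes (-0.13 and -0.026), Hba-a2 (-0.027), Hbb-b1 (-0.14) and Alas2 (-0.0082), after normexp and quantile normalization for the first Hba-a1 probe (-0.064) and Alas2 (-0.043), and in the unscaled table for the first Hba-a1 probe (-0.028) and Hbb-b1 (-0.23). With array weights it was negative for both Hba-a1 probes (-0.37 and -0.61), Hba-a2 (-0.27), Hbb-bt (-0.51), Hbb-b1 (-0.34) and Alas2 (-1.18), and when the slide column entered as a random block for both Hba-a1 probes (-0.16 and -0.14), Hba-a2 (-0.055), Hbb-b1 (-0.47) and Alas2 (-0.28). Hbb-b2 turned positive with outlier spots kept (0.29).

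With 1 array left out, the differences ran from -0.35 to 0.25 and -0.56 to 0.44 for the Hba-a1 probes, -0.20 to 0.31 for Hba-a2, -0.28 to 0.66 for Hbb-bt, -0.86 to 0.69 for Hbb-b1, -0.50 to 0.12 for Hbb-b2, -1.07 to 0.80 for Alas2 and 0.09 to 2.18 for Slc4a1. Both replicates 3 were also left out, a choice made after seeing the data. It removes the members' lowest PGC-1αf/f array and highest mPGC-1α array, so it could only lower the differences. Hbb-bt and Hbb-b1 were left with 1 mPGC-1α array and Hbb-b2 with 1 array per group. The differences were then -0.64 and -0.82 for the Hba-a1 probes, -0.50 for Hba-a2 and -0.67 for Hbb-bt. They were -0.86 for Hbb-b1, -0.50 for Hbb-b2, -1.39 for Alas2 and -0.28 for Slc4a1. Of the heme and red cell lists, 2 genes passed the threshold in the unscaled table (Hp at 1.85 and Nfe2 at 2.02). With array weights 2 passed (Aqp1 at 0.70 and Epb41 at -0.38), against 0 in the other settings. In the unscaled table Hp and Nfe2 had the same SE, 0.428, so these 2 tests did not use each gene's own spread. With the main scaling, their SD between PGC-1αf/f arrays was 2.28 and 2.47. Their differences there were 0.57 and 0.64 without PGC-1αf/f replicate 3. The cause of the passes was not tested.

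Replicate numbers were not taken as pairs. Deviations of same-numbered arrays correlated at 0.14, 0.13 and 0.02, which shows no clear pairing but cannot exclude a shared day or litter. With the replicate number as a block, 0 members passed the threshold and Hbb-b1, with replicate 1 as its only pair, turned to -1.36. Hbb-b2 had no pair and no value in that fit. Slc4a1 on PGC-1αf/f replicate 3 was not well above background, which limits its difference with all arrays.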

Other observations

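Hemgn (hemogen), a nuclear protein of blood-forming cells, had 2 probes that gave different pictures. The first was well above background on all 6 arrays and read 6.21, 5.78 and 5.57 in PGC-1αf/f and 6.20, 5.72 and 5.90 in mPGC-1α. The other reached the well above background mark on 0 of 6 arrays. Which transcript the first probe bound was not tested, and Hemgn was singled out after its values were seen.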
